A study of Mus musculus with 12 samples.

Results

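Eyelid tissue collected at 9 in the morning was compared between mice on a high-fat diet and mice on a standard diet. The comparison used those 4 of the 12 RNA sequencing libraries of the study that are labelled 9h: standard-diet libraries 2 and 3 and high-fat libraries 6 and 7. All mice were C57BL/6 males, 6 to 8 weeks old at the start, kept on 12 h of light per day. The standard diet held 10 kcal% fat and the high-fat diet 60 kcal% fat. The time on the diet is 3 months in the sample labels but 4 months in the text of the series. The sample labels name the tissue as meibomian gland, whereas the series text describes upper and lower eyelids taken whole. The other 8 libraries, 2 for each diet at 15h and at 21h, entered the fit to estimate the spread between libraries and served for the comparison of 9h with the later times. Nothing in these sources tells if a library stands for 1 mouse or for pooled mice, and p-values measure only the spread between these libraries.

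The meibomian gland is a sebaceous gland of the eyelid whose cells fill with lipid and burst to release meibum, the oily layer of the tear film. Interferons are secreted proteins that bind receptors on neighbouring cells and, through the STAT and IRF transcription factors, switch on genes that block viruses, load peptides on MHC molecules and attract lymphocytes. The circadian clock is a feedback loop in which BMAL1 (gene Arntl) and CLOCK drive the Per, Cry and Nr1d genes, whose products repress that drive, and glucocorticoid hormone adds a daily signal to peripheral tissues. In mice, which are active in the dark, glucocorticoid peaks near the start of the dark phase.

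The tissue held the named gland and its surroundings. All 27 listed meibocyte and sebocyte genes passed the filter on low values, above 1 FPKM (fragments per kilobase of exon, scaled by sequencing depth) in at least 2 of the 12 libraries. Among them Scd1, a fatty acid desaturase, stood at 3855 and 4590.5 FPKM in standard-diet libraries 2 and 3 and at 3301 and 5270.3 FPKM in high-fat libraries 6 and 7. Markers of muscle, epidermis, conjunctiva and hair follicle were also present, and the muscle list summed to 9752 and 8064 FPKM in the standard-diet libraries and to 8175 and 10224 FPKM in the high-fat libraries. Recovered depth at 9h was 16334956 to 17889160 reads per library, against 14096366 to 17889160 in the series. High-fat library 6 had the highest median FPKM of the 12, at 2.24 over the genes of the table, and high-fat library 7 the lowest, at 1.70, while standard-diet libraries 2 and 3 stood at 1.91 and 1.88.

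At 9h, most tested interferon-induced antiviral genes, interferon-gamma GTPases, antigen-presentation genes and cytotoxic lymphocyte genes were lower in both high-fat than both standard-diet libraries. Most glucocorticoid targets tested (10 of 12), among them Tsc22d3, Rasd1 and Klf9, were higher in both, as were Per2 and Usp2. Clock genes were mixed, with 8 of 20 higher and 4 lower in both. Of all genes tested, 15% were higher and 14.8% lower in both high-fat than both standard-diet libraries. No single gene passed the threshold of the test. Of 13228 genes tested, 0 (0%) had a limma adjusted p under 0.05, the smallest being 0.0807. At an unadjusted p under 0.05 there were 955 genes (7.22%), of which 577 (4.36%) were lower and 378 (2.86%) higher in high-fat mice. A fit of the 4 libraries of 9h alone, with 2 residual degrees of freedom, called 50 genes lower (0.378%) and 5 higher (0.0378%), and limma-voom on recovered reads called 0, with a smallest adjusted p of 0.0681. More than 2-fold differences on the log2(FPKM + 1) scale were found for 122 genes lower (0.922%) and 19 higher (0.144%) in high-fat mice. Of the 577 lower genes, 85 were among the 115 tested genes of the lists of interferon signalling, nucleic acid sensing, interferon-induced effectors and GTPases, antigen presentation, immunoproteasome and lymphocyte chemokines, whereas none of the 378 higher genes was. The median over all genes tested was 0.02 on that scale. A difference given below is always high-fat minus standard diet in log2(FPKM + 1) with its standard error, which understates the change of genes near 1 FPKM.

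**Figure D1:**
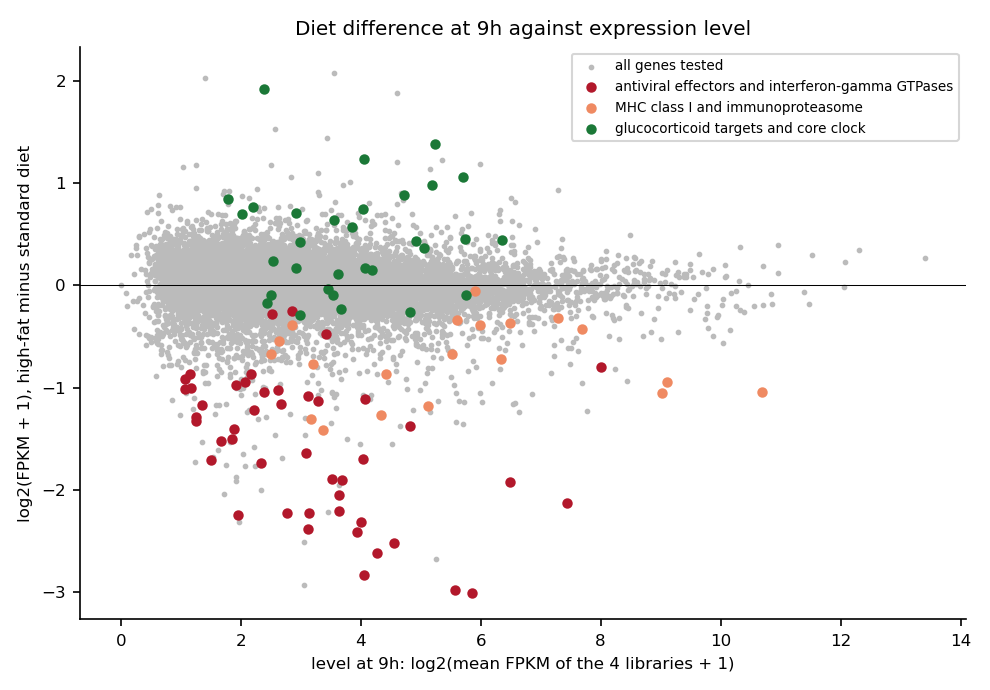
Each point is a gene at 9h: the horizontal axis gives its level, log2 of the mean FPKM of the 4 libraries plus 1, and the vertical axis its diet difference in log2(FPKM + 1), with listed genes coloured. Antiviral effectors and interferon-gamma GTPases lie below 0, most of them past -1, while glucocorticoid targets and clock genes make up several of the highest points.

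Interferon-induced antiviral effectors were lower in high-fat mice as a group. All 30 tested genes of the list (of 32 symbols, 30 of them in the table) had a negative difference, 28 at an unadjusted p under 0.05 where 4.36% of all genes were lower at that p, and in 28 both high-fat libraries were below both standard-diet libraries, which held for 14.8% of all genes. Their median difference was -1.35, with -1.36 in high-fat library 6 and -1.39 in high-fat library 7. Genes of this list and of those that follow passed the filter through whichever libraries were above 1 FPKM, and the lists were made with results of these data known, so the counts describe them and are not independent evidence.

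Ifit1bl1, a member of the Ifit family of RNA-binding proteins, was the most abundant of the genes with the smallest p-values. It stood at 305 and 257 FPKM in the standard-diet libraries and at 60.3 and 66.9 FPKM in the high-fat libraries, a difference of -2.12 ± 0.24 (limma adjusted p = 0.0807) and 4.42-fold lower in the means. Its neighbours in the same cluster on chromosome 19 behaved alike: Ifit3b was at 22.2 and 27.3 FPKM against 2.84 and 5.05 FPKM (difference -2.41 ± 0.30, adjusted p = 0.0807 by limma). Ifit3 was at 35.8 and 42.4 FPKM against 4.5 and 7.82 FPKM. Ifit1, which binds viral RNA that lacks the host cap methylation, was at 27.4 and 29 FPKM against 2.22 and 4.19 FPKM, 8.78-fold lower in the means (difference -2.83 ± 0.47, limma adjusted p = 0.132). Ifit copies are similar in sequence and reads could have been split among them, so the share of each is uncertain.

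Isg15, a ubiquitin-like protein that is attached to other proteins in infected cells, stood at 85.9 and 79 FPKM in the standard-diet libraries and at 6.36 and 14.2 FPKM in the high-fat libraries, with a difference of -2.98 ± 0.59 and a limma adjusted p of 0.205. The 2 high-fat libraries were apart by more than 2-fold, and each was still more than 5-fold below either standard-diet library. Oas1a, a sensor enzyme that makes the 2-5A signal for RNA decay, was at 14.8 and 12.3 FPKM against 1.46 and 2.14 FPKM (difference -2.38 ± 0.32, limma adjusted p = 0.093). Its family members Oasl2 (24.5 and 23.8 against 7.41 and 6.14 FPKM) and Oas3 (3.43 and 3.23 against 0.235 and 0.416 FPKM) were lower in both high-fat libraries. Parp9 and Dtx3l, whose proteins form an ADP-ribosyltransferase and ubiquitin ligase pair, differed by -1.13 ± 0.14 and -1.08 ± 0.17, and Parp9 had a limma adjusted p of 0.0807. Their genes lie next to each other on chromosome 16, where the strand used in counting is not given in the sources used here, so reads of the overlap cannot be told apart.

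Rsad2 (viperin) was at 3.37 and 4.14 FPKM against 0.675 and 0.621 FPKM, Bst2 (tetherin, which holds budding virus at the cell surface) at 48.9 and 31.3 against 14.4 and 14.6 FPKM, and Ifitm3, which blocks viral entry, at 414 and 244 against 194 and 171 FPKM. The smallest differences of the list were those of Slfn5 (-0.28 ± 0.22) and Isg20 (-0.25 ± 0.21), whose libraries overlapped between diets.

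**Figure D2:**
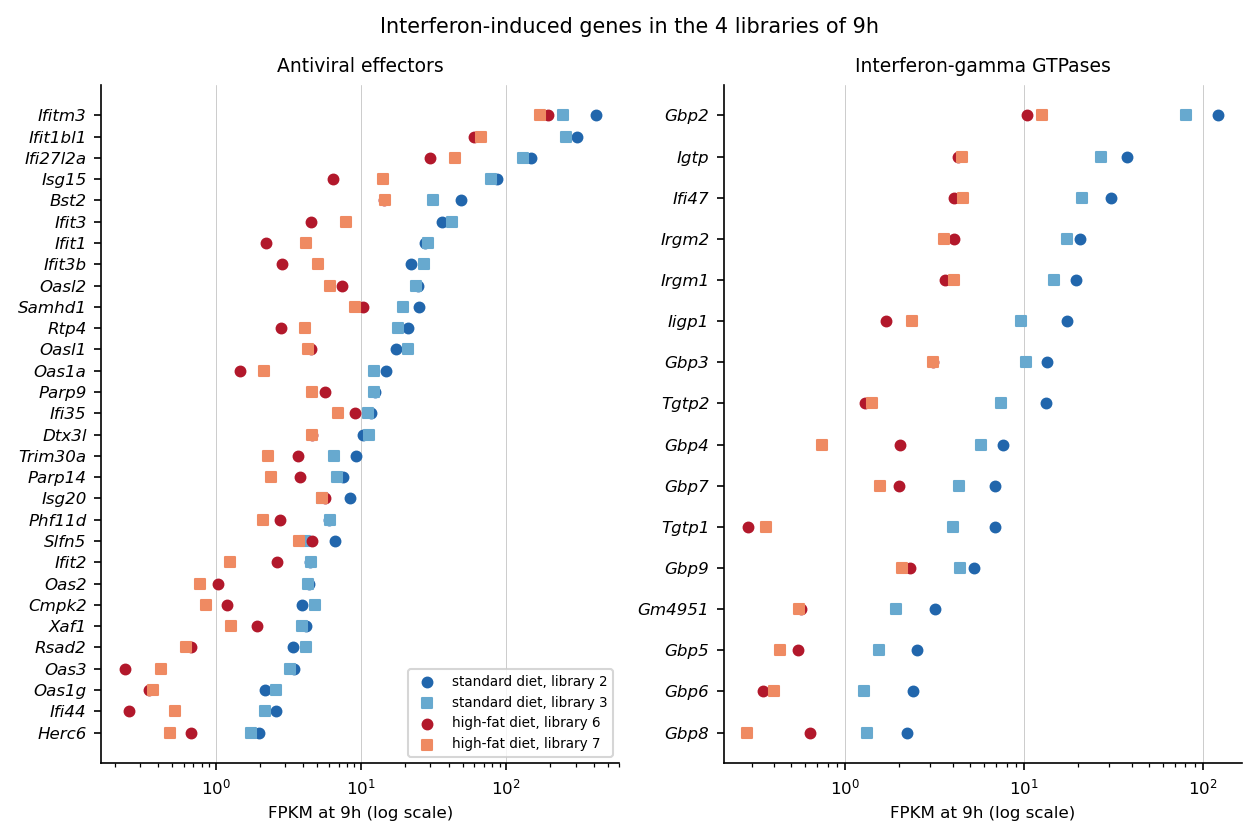
FPKM at 9h (log scale) of the 30 antiviral effectors and the 16 interferon-gamma GTPases, with 1 point for each of the 4 libraries. In 28 effectors and all 16 GTPases both high-fat libraries lie left of both standard-diet libraries, and the standard-diet pair lies close together for the Ifit and Oas genes.

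The promoters of these genes were read for the interferon-stimulated response element, here GAAA, any 2 bases and GAAA again, searched on both strands in the 250 bases before and 50 after each gene start (RefSeq, GRCm38.p6). The motif was in 3.44% of 32851 promoters and in 3.85% of 10468 tested genes with a promoter, against 13 of 25 antiviral effectors (52%) and 9 of 10 GTPases (90%) with one. Of the 15 lower genes named by p-value or size, 13 had a promoter in the table and 9 held the motif. A match is a string of letters and not a shown binding site. The promoters of Isg15, Ifit1, Gbp2 and Oas1a are shown because these genes had some of the largest differences and carry the motif in different numbers and strands. Each runs 5′ to 3′ on the strand of its gene, and capitals mark the motif, which reads TTTC, any 2 bases and TTTC where it lies on the other strand:
Isg15: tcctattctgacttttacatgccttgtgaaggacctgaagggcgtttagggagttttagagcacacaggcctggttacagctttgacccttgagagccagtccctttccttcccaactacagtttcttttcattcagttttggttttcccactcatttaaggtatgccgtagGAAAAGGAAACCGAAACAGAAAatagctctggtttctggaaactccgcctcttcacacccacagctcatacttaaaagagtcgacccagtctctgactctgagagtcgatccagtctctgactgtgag
Ifit1: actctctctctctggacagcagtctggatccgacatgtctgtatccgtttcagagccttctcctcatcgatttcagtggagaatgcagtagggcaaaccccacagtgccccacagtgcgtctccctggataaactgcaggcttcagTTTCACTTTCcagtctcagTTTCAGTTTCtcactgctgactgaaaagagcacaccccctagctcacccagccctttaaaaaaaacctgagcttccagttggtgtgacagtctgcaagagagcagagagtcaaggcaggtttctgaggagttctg
Gbp2: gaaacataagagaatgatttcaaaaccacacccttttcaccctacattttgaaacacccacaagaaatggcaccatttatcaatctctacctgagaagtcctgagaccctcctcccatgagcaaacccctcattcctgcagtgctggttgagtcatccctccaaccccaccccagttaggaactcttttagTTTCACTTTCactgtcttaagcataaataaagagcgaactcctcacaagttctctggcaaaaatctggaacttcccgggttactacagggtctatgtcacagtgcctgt
Oas1a: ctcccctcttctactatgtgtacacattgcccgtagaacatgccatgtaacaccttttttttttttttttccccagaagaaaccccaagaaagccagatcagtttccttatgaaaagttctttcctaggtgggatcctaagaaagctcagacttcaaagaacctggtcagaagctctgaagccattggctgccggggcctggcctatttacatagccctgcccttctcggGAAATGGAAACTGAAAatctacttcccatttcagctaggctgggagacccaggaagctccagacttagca

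The window of Isg15 is chr4:156200769-156201068 (minus strand), upstream and start of a gene that spans chr4:156199424-156200818, and its 3 overlapping matches begin 78, 72 and 66 bases before the start. That of Ifit1 is chr19:34640639-34640938 (plus strand), at the start of a gene spanning chr19:34640871-34650009, with matches beginning 104 and 85 bases before the start on the opposite strand. That of Gbp2 is chr3:142620413-142620712 (plus strand) with 1 match 59 bases before the start, and that of Oas1a is chr5:120907476-120907775 (minus strand) with overlapping matches 20 and 14 bases before it. No promoter was read for Parp9 or Misp.

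Interferon-gamma GTPases, the GBP and IRG proteins that attack the vacuoles of intracellular microbes, showed the most negative median of any interferon list. All 16 tested members (of 17 symbols) were lower in both high-fat libraries than in both standard-diet libraries, against 14.8% of all genes. Of these, 15 were at an unadjusted p under 0.05 (4.36% of all genes), and the median difference was -1.82. Gbp2 stood at 122 and 81.1 FPKM in the standard-diet libraries and at 10.5 and 12.7 FPKM in the high-fat libraries, 8.8-fold lower in the means (difference -3.01 ± 0.60, limma adjusted p = 0.207). Gbp3 was at 13.4 and 10.3 against 3.09 and 3.11 FPKM (difference -1.64 ± 0.26, adjusted p = 0.132 by limma). Among the IRG genes, Ifi47 was at 30.7 and 21.1 against 4.08 and 4.55 FPKM, Irgm2 at 20.6 and 17.4 against 4.04 and 3.58 FPKM and Igtp (Irgm3) at 37.6 and 27.1 against 4.28 and 4.48 FPKM. For each of these 3 genes the lower standard-diet library was more than 4-fold above the higher high-fat library. Igtp and Irgm2 overlap on the same strand, so their separate levels are uncertain. Tgtp1 (6.85 and 4.01 against 0.286 and 0.363 FPKM) and Tgtp2 are near-identical copies, and their separate levels, like those of the similar Gbp genes, are uncertain. Standard-diet library 2 was above standard-diet library 3 in all 16 genes, with a list median of -0.49 for library 3 minus library 2.

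Several transcription factors of the pathway were lower in both high-fat libraries, while the receptor genes Ifnar1 and Ifngr1 overlapped between diets. Irf7, the factor that amplifies type I interferon responses, was at 19.1 and 18.7 FPKM against 3.54 and 4.8 FPKM (difference -1.95 ± 0.30, limma adjusted p = 0.132). Irf1 was at 25.9 and 20.5 against 13.7 and 7.42 FPKM, and Usp18, which removes ISG15 and dampens the receptor, at 6.9 and 6.27 against 1.87 and 2.35 FPKM. Stat2 and Irf9, parts of the complex that carries the type I signal to DNA, differed by -0.95 ± 0.26 and -1.07 ± 0.32. Ifnar1 was at 9.58 and 8.55 against 9.76 and 7.78 FPKM and Ifngr1 at 46.4 and 33.9 against 47.3 and 41.6 FPKM, and the kinases Jak1 and Tyk2 overlapped as well. Over the 17 genes of this list, 8 were lower and 0 higher at an unadjusted p under 0.05, against 4.36% lower of all genes, and 7 were lower without overlap, against 14.8% of all genes. The list median was -0.24 in high-fat library 6, where 5 of the 17 genes were above both standard-diet libraries, and -0.66 in library 7.

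Nucleic acid sensors showed the same direction, with 14 of 16 tested genes lower, 7 of them at an unadjusted p under 0.05, against 4.36% of all genes. Their median was -0.29 in high-fat library 6 and -0.78 in library 7. Zbp1, which senses Z-form nucleic acid, was at 15.4 and 10.9 FPKM against 1.25 and 1.67 FPKM (difference -2.51 ± 0.42, limma adjusted p = 0.132). Ifih1 (MDA5), a sensor of long double-stranded RNA, was at 5.97 and 6.15 against 2.67 and 2.36 FPKM, and Adar, which edits such RNA, at 4.74 and 5.94 against 2.83 and 2.74 FPKM. Sting1 was at 13 and 6.2 against 6.8 and 4.18 FPKM, and Cgas, whose product activates STING, at 1.58 and 1.27 against 1.24 and 1.22 FPKM. Interferon genes themselves were too low to compare: of 10 genes listed, 0 passed the filter, 5 were at 0 in all 4 libraries, and the highest value was 0.876 FPKM, of Ifnl2 in standard-diet library 3. Ifng, the gene of interferon gamma, was at 0.0455 and 0.129 FPKM in the standard-diet libraries and at 0.133 and 0.0473 FPKM in the high-fat libraries.

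Genes of MHC class I presentation were lower in high-fat mice by about the same amount in both libraries, with medians of -0.61 and -0.72 and of -0.67 over both. All 15 were negative, 12 at an unadjusted p under 0.05 (4.36% of all genes), and 14 did not overlap (14.8% of all genes). B2m, the light chain of every class I molecule, was at 2538 and 1905 FPKM against 1082 and 1059 FPKM (difference -1.04 ± 0.26, limma adjusted p = 0.298). The class I heavy chain H2-K1 was at 778 and 627 against 321 and 352 FPKM, and H2-T23 (Qa-1) at 109 and 90.4 against 55 and 64.8 FPKM. H2 genes share long stretches, so reads could be split among them. Tap1, a subunit of the transporter that brings peptides into the endoplasmic reticulum, differed by -1.27 ± 0.26 (30.5 and 24.8 against 11.6 and 10.1 FPKM), whereas Canx, a general chaperone, was at 64.8 and 54.5 against 63 and 52.2 FPKM.

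The immunoproteasome replaces the catalytic subunits of the standard proteasome when interferon is present. Psmb8 was at 15.1 and 8.68 FPKM against 3.51 and 4.64 FPKM, Psmb9 at 16.5 and 11.7 against 4.14 and 5.07 FPKM, and Psmb10 at 31.6 and 21.8 against 15.1 and 13 FPKM. Their differences were -1.31 ± 0.30, -1.42 ± 0.36 and -0.86 ± 0.21, with limma adjusted p-values of 0.249, 0.298 and 0.291. Psmb9 overlaps Tap1 on the opposite strand, and without the strand used in counting, reads of the overlap cannot be told apart. All 5 immunoproteasome and activator genes were lower without overlap between diets, against 14.8% of all genes. The constitutive counterparts Psmb5 (76.3 and 55.1 against 46.8 and 87.8 FPKM), Psmb6 and Psmb7 all overlapped. Of these 3, 0 reached an unadjusted p under 0.05, as did only 7.22% of all genes in either direction. The difference between these lists was not tested.

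MHC class II genes, used by dendritic cells, macrophages and B cells to show peptides to helper T cells, were lower in all 8 tested genes, with no overlap between diets (14.8% of all genes were lower in that way). Cd74, the invariant chain, was at 583 and 336 FPKM against 218 and 245 FPKM (difference -0.94 ± 0.27, limma adjusted p = 0.394). H2-Ab1 was at 242 and 134 against 97.7 and 99.9 FPKM. Ciita, the master regulator of the class II genes, was at 2.28 and 1.46 against 1.03 and 0.758 FPKM. Here the standard-diet libraries were themselves far apart, library 2 above library 3 in all 8 genes with a median gap of -0.77 for library 3 minus library 2, which exceeds the list's median diet difference of -0.67.

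Transcripts of T and cytotoxic lymphocytes and of most listed chemokines that draw them in were lower as well. All 8 tested genes of the chemokine list had a negative difference, 4 at an unadjusted p under 0.05 (4.36% of all genes). Without overlap there were 6 (14.8% of all genes). Cxcl13, at 23 and 2.67 against 9.23 and 7.4 FPKM, overlapped between diets (difference -0.02 ± 0.83). Cxcr3, the receptor of the interferon-induced chemokines, was at 2.21 and 1.84 FPKM against 0.828 and 0.637 FPKM (difference -0.80 ± 0.13, limma adjusted p = 0.132). Its ligands Cxcl9 (7.38 and 3.22 against 1.01 and 0.792 FPKM) and Cxcl10 (7.19 and 2.85 against 0.357 and 0.734 FPKM) were lower in both high-fat libraries but varied by more than 2-fold between the standard-diet libraries. Ccl5, made by activated T cells, was at 19.7 and 14.4 against 2.99 and 2.74 FPKM (difference -2.21 ± 0.43, limma adjusted p = 0.204). Gzma, a granule protease of cytotoxic cells, was at 14.5 and 12.8 FPKM against 0.627 and 1.28 FPKM, 14.4-fold lower in the means (limma adjusted p = 0.304). Gzmb and Nkg7 differed by -1.76 ± 0.44 and -1.76 ± 0.45, and Plac8, expressed in several immune and epithelial cell types, was at 83 and 47.7 against 9.8 and 8.27 FPKM.

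Cd8a was at 4.31 and 2.63 FPKM against 0.394 and 0.353 FPKM and Cd8b1 at 6.19 and 3.81 against 0.541 and 0.578 FPKM (difference -1.91 ± 0.42), the 2 chains of the coreceptor of CD8 T cells. Cd2, a general T cell surface protein, was at 5.34 and 4.01 against 2.31 and 2.0 FPKM, and Cd4 differed by -0.66 ± 0.24. All 13 tested T cell genes were lower, 9 at an unadjusted p under 0.05 (4.36% of all genes), with a median of -0.48. Their summed level was 43.4 and 27.5 FPKM in the standard-diet libraries and 18.1 and 13.3 FPKM in the high-fat libraries. Of 12 cytotoxic genes listed, only 5 passed the filter, and these summed to 29.2 and 23.6 against 4.28 and 4.24 FPKM. At an unadjusted p under 0.05, 3 of the 5 were lower. The cytotoxic median of -1.76 ranged from -2.54 to -0.42 over the alternative fits. In whole tissue, fewer cells of a type and less RNA per cell cannot be told apart, and the part of lymphocyte number in the interferon-induced genes was not tested.

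Summed myeloid levels overlapped between diets. That of the macrophage list was 1523 and 859 FPKM in the standard-diet libraries and 967 and 726 FPKM in the high-fat libraries. Gene by gene, 13 of the 16 were lower, with a median of -0.43 (-0.22 in library 6 and -0.59 in library 7). Without overlap, 5 were lower and 1 higher, against 14.8% and 15% of all genes. At an unadjusted p under 0.05 there was 1, lower (4.36% of all genes): Fcgr1, an interferon-responsive Fc receptor (4.37 and 1.96 against 1.53 and 0.946 FPKM). Neutrophil genes summed to 369 and 79.9 FPKM in the standard-diet libraries and to 70.5 and 85.4 FPKM in the high-fat libraries, so standard-diet library 2 alone stood apart, and the defining neutrophil genes Ly6g, Elane and Ngp were at 0 in all 4 libraries. All 20 inflammatory cytokine genes were higher in standard-diet library 2 than in library 3. Between diets, 16 were lower and 4 higher, with 2 lower at an unadjusted p under 0.05 (4.36% of all genes). Without overlap, 4 were lower and 0 higher, against 14.8% and 15% of all genes. The list median of -0.57 ranged from -0.99 to 0.095 over the alternative fits. Tnf was at 5.17 and 2.15 against 1.19 and 1.68 FPKM, a difference of -0.86 ± 0.26 (limma adjusted p = 0.438), and Il1a at 8.95 and 5.24 against 4.97 and 2.95 FPKM. Without standard-diet library 2, the number of genes lower at an unadjusted p under 0.05 was 327, with 62 of them among the 115 genes of the interferon, antigen and chemokine lists.

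**Figure D3:**
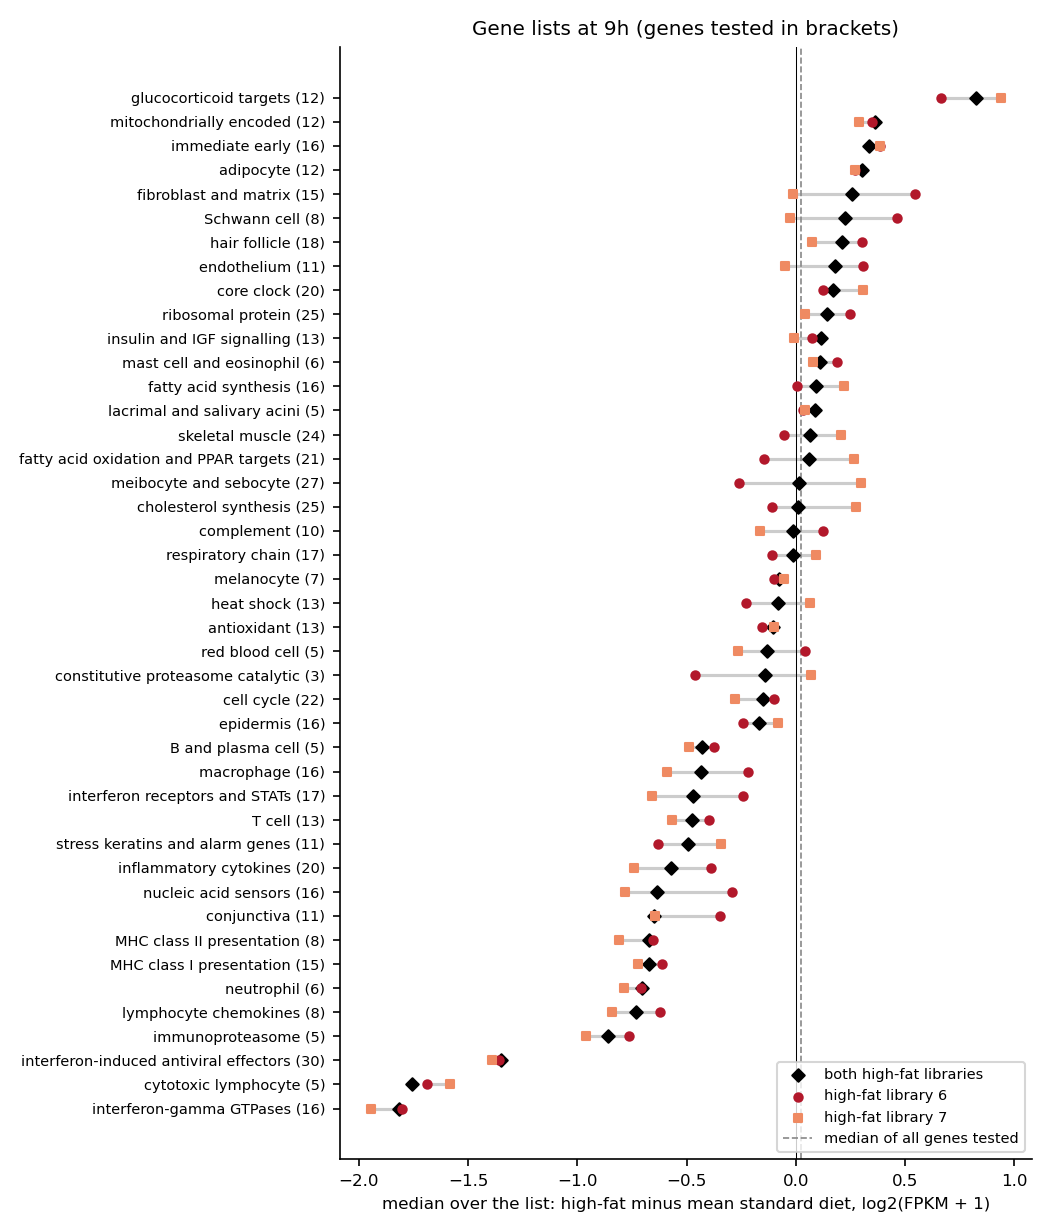
Median difference of each gene list at 9h in log2(FPKM + 1), high-fat minus the mean of the standard-diet libraries, for both high-fat libraries together and for each alone; a median over both need not lie between the single medians. The interferon-induced lists lie far left in both libraries and the glucocorticoid targets far right, while the lipid and matrix lists change order between library 6 and library 7.

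Among genes higher in high-fat mice, targets of the glucocorticoid receptor had the highest median of any list, 0.82 over 12 tested genes (0.66 in library 6 and 0.94 in library 7). Of these, 11 were higher, 5 at an unadjusted p under 0.05 where 2.86% of all genes were higher at that p, and 10 did not overlap, against 15% of all genes. Tsc22d3 (GILZ), a mediator of the anti-inflammatory action of glucocorticoids, was at 18.4 and 21.1 FPKM in the standard-diet libraries and at 59.1 and 47.8 FPKM in the high-fat libraries (difference 1.39 ± 0.41, limma adjusted p = 0.418). Rasd1, a Ras-like protein first found as dexamethasone-induced, was at 0.95 and 1.39 against 8.58 and 5.93 FPKM, 6.2-fold higher in the means (difference 1.92 ± 0.49, limma adjusted p = 0.304). Klf9 was at 18.5 and 16.5 against 30.1 and 36.3 FPKM (difference 0.88 ± 0.19, limma adjusted p = 0.213). The groups did not overlap for these 3 genes or for Errfi1 (22.4 and 24.7 against 53.2 and 42.1 FPKM), but Fkbp5, another classical target, was higher mainly in library 7, at 8.71 and 7.17 against 9.17 and 17.9 FPKM.

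Period genes and some other clock genes were also higher at 9h. Per2 was at 1.31 and 1.63 FPKM against 3.95 and 2.97 FPKM, 2.35-fold higher in the means (difference 0.85 ± 0.18, limma adjusted p = 0.213). Per1, which answers to both the clock and glucocorticoid, was at 6.56 and 11.7 against 23 and 21.1 FPKM, Nr1d2 (REV-ERB beta) at 9.3 and 13.4 against 21 and 18.1 FPKM, and Ciart at 4.11 and 5.49 against 8.07 and 8.75 FPKM. Tef and Per3 did the same, differing by 0.57 ± 0.21 and 0.70 ± 0.28. Not every clock gene followed: Nr1d1 (11.5 and 18.3 against 13.9 and 19.4 FPKM), Dbp and Arntl (4.68 and 4.95 against 5.24 and 3.75 FPKM) overlapped between diets, and Cry1 was lower in both high-fat libraries (8.52 and 7.0 against 5.99 and 6.27 FPKM). Clock, Npas2 and Bhlhe41 were the other 3 genes lower in both. Over the 20 clock genes the median was 0.17 (0.12 in library 6 and 0.31 in library 7), with 6 higher and 0 lower at an unadjusted p under 0.05, against 2.86% and 4.36% of all genes. Without overlap, 8 were higher and 4 lower, against 15% and 14.8% of all genes.

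On the standard diet Per2 and Nr1d2 were lower at 9h than at either later time. Per2 went from 1.31 and 1.63 FPKM at 9h to 5.6 and 7.02 FPKM at 15h and 15.2 and 13.4 FPKM at 21h on the standard diet, and from 3.95 and 2.97 to 7.79 and 5.76 and 13.3 and 10.9 FPKM on the high-fat diet. The diet difference of Per2 was thus 0.85 ± 0.18 at 9h, 0.08 at 15h and -0.23 at 21h. Nr1d2 was highest at 15h on the standard diet, with 9.3 and 13.4, then 30.1 and 33.1, then 26 and 28.9 FPKM, and had diet differences of -0.10 and -0.12 at the later times. Rasd1 was higher in the high-fat mean at all 3 times, with differences of 1.08 at 15h and 1.49 at 21h. No test of a rhythm was made, since 3 times over part of a day cannot define one.

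**Figure D4:**
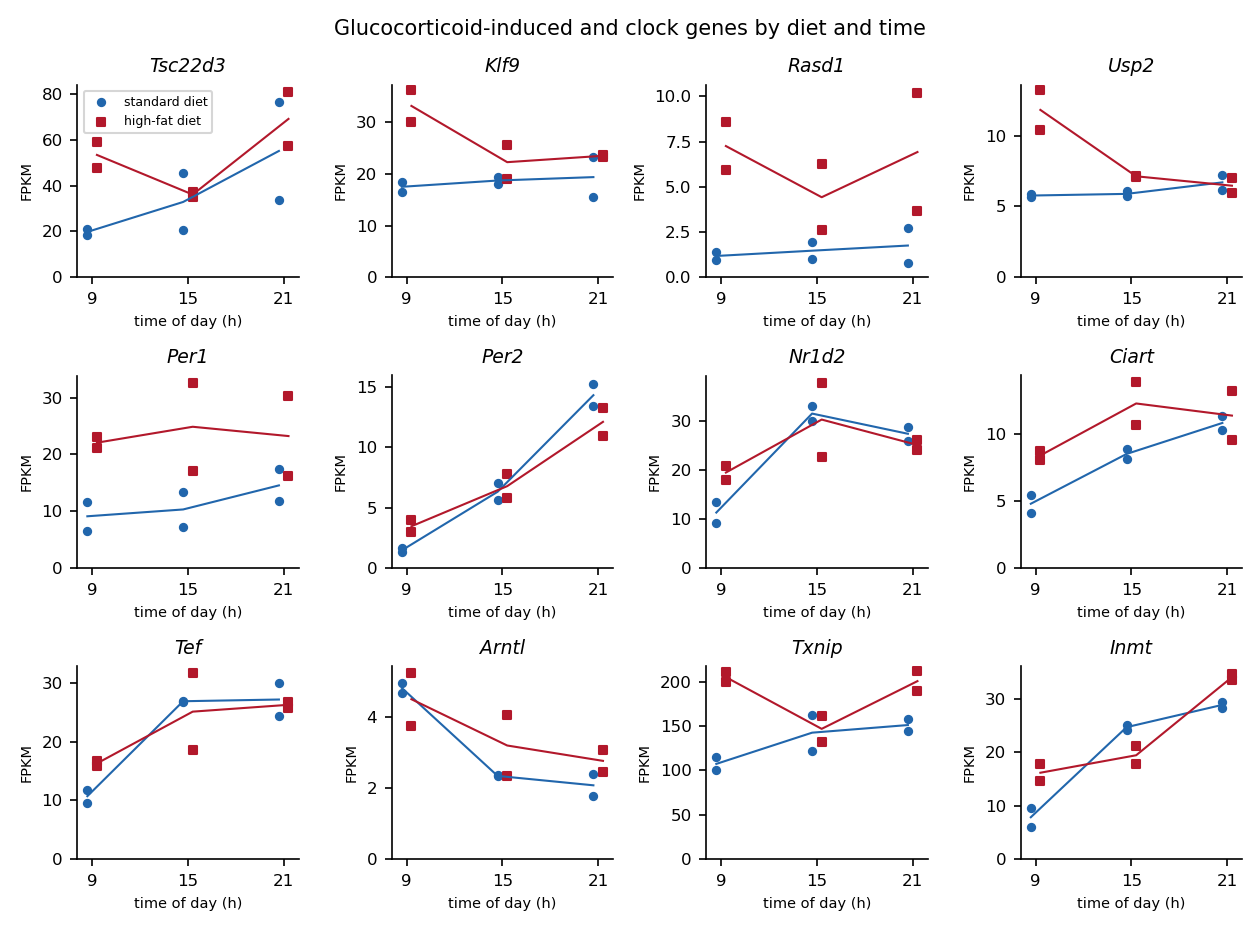
FPKM of 12 glucocorticoid-induced and clock-linked genes against time of day (h), with 1 point per library, set slightly apart by diet, and lines through the group means. At 9h the high-fat libraries lie above the standard-diet libraries in every panel except Arntl, while at 15h and 21h those of Per2, Nr1d2 and Tef are no longer all above them.

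Among the higher genes named by p-value, the smallest p was that of Usp2, a deubiquitinase whose transcript is rhythmic in many tissues. It was at 5.68 and 5.85 FPKM in the standard-diet libraries and at 10.4 and 13.2 FPKM in the high-fat libraries (difference 0.91 ± 0.13, limma adjusted p = 0.119). At 15h it was at 5.71 and 6.05 against 7.18 and 7.08 FPKM. Txnip, a glucose-responsive inhibitor of thioredoxin, was at 99.9 and 115 against 211 and 199.6 FPKM at 9h (difference 0.93 ± 0.16, limma adjusted p = 0.132). Inmt, a methyltransferase, was at 6.04 and 9.64 against 17.7 and 14.6 FPKM, and its standard-diet level was higher at 15h, at 24.3 and 25.1 FPKM. Mn1, a transcriptional cofactor, and Cyp2d22, a cytochrome P450, differed by 0.66 ± 0.14 and 0.86 ± 0.20. Crisp1 had 1.83 and 1.89 against 11.7 and 4.41 FPKM, with the high-fat libraries more than 2-fold apart. Cytl1, a secreted cytokine-like protein, had the largest positive difference of the named genes, 2.08 ± 0.64, at 3.96 and 3.12 against 18.2 and 17.9 FPKM (limma adjusted p = 0.449), but its standard-diet libraries at 15h were as far apart as 29.2 and 6.47 FPKM. Depp1, a FOXO target, was at 3.73 and 6.05 against 16.3 and 13.3 FPKM.

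When the diet difference at 9h was set against the mean of those at 15h and 21h, 0 of 13228 genes (0%) had a limma adjusted p under 0.05, the smallest being 0.951. At an unadjusted p under 0.05 there were 487 genes (3.68%), 304 (2.3%) with a more positive and 183 (1.38%) with a more negative diet difference at 9h. The 5 with the smallest p were Morn2, Usp2, Aadacl4fm2, Inmt and Crisp1. Usp2 differed by 0.82 more at 9h than at the later times (unadjusted p = 0.000575) and Inmt by 1.04 (unadjusted p = 0.00103). Aadacl4fm2 was lower at 9h, at 46.4 and 75.7 against 22.9 and 38.7 FPKM, and had diet differences of 1.13 and 0.63 later. Per2 had 0.92 (unadjusted p = 0.00213), Klf9 0.62 (unadjusted p = 0.026) and Tsc22d3 1.06 (unadjusted p = 0.0607). Among interferon-induced genes, Oas1a had -0.07 (unadjusted p = 0.869), Isg15 -0.31 and Gbp2 -0.30. Larger values were those of Ifit1bl1, at -0.67 (limma unadjusted p = 0.0522), and Ifit1, at -0.50, while Gbp3 had 0.22. The list medians of the antiviral effectors were -1.35 at 9h, -1.50 at 15h and -1.38 at 21h, and those of the glucocorticoid targets 0.82, 0.21 and 0.39.

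Immediate early genes, which are switched on within minutes of handling or stimulation, had a median of 0.33, with 14 of 16 higher. Of these, 8 did not overlap, against 15% of all genes, and 1, Egr2, reached an unadjusted p under 0.05, against 2.86% of all genes. Nr4a1 was at 7.97 and 10.8 FPKM against 42.7 and 31.8 FPKM and Egr1 at 21.8 and 20.4 against 46.5 and 49.1 FPKM, and their limma adjusted p-values were 0.812 and 0.816. The fit shares its spread with the later times, where the high-fat libraries were far apart: Nr4a1 was at 6.75 and 101 FPKM in high-fat libraries 2 and 6 of 15h and at 5.98 and 112 FPKM in high-fat libraries 3 and 6 of 21h. Dusp1, counted both among these and among glucocorticoid targets, was at 33.9 and 31 against 79.5 and 59.6 FPKM. Fos was at 15.1 and 9.67 against 51.5 and 16.5 FPKM, so library 6 alone stood apart.

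Lipid gene lists had medians near 0 at 9h. The 27 meibocyte and sebocyte genes had a median of 0.01, but -0.26 in high-fat library 6 and 0.30 in high-fat library 7. For 17 of the 27 genes (63%), both standard-diet libraries lay between a lower library 6 and a higher library 7, which held for 7.1% of all genes tested. Awat2, a wax ester synthase of meibum, was at 1155 and 1320.3 FPKM in the standard-diet libraries and at 959 and 1474 FPKM in high-fat libraries 6 and 7. Elovl4, which makes very long fatty acids, was at 1329 and 1454 against 1138 and 1707 FPKM. At an unadjusted p under 0.05, 1 of the 27 was higher, a share near the 2.86% of all genes, and 0 lower. Without overlap, 3 were higher and 0 lower, against 15% and 14.8% of all genes. The gene at that p was Acsbg1, an acyl-CoA synthetase, at 66.2 and 86.7 against 96.3 and 116 FPKM. Soat1, which esterifies cholesterol, was at 88.7 and 97.7 against 107 and 128 FPKM.

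Cholesterol synthesis had a median of 0.01 over 25 genes, but -0.11 in high-fat library 6 and 0.27 in high-fat library 7. At an unadjusted p under 0.05, 3 were higher, against 2.86% of all genes, and 0 lower. Without overlap, 9 were higher and 1 lower, against 15% and 14.8% of all genes. Pmvk and Mvk, kinases of the mevalonate pathway, were at 96.7 and 94.5 against 126 and 157 FPKM and at 22.8 and 25.8 against 28.5 and 32.1 FPKM. Hmgcs1 differed by 0.24 ± 0.12, while Sqle (43.3 and 47.1 against 37.2 and 50.1 FPKM) overlapped between diets. All 25 genes were higher in library 7 than in library 6, where 32.2% of all genes were.

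Several metabolic genes outside these groups did not overlap, where 15% of all genes were higher and 14.8% lower in that way. Thrsp, a lipogenic factor, was at 0.968 and 0.332 against 1.96 and 2.32 FPKM, near the limit of the filter. Of 16 fatty acid synthesis genes, 13 were higher, 5 without overlap and 1 at an unadjusted p under 0.05 (2.86% of all genes). Their median was 0.09, with 0.004 in library 6 and 0.22 in library 7. Ffar4, a receptor for long-chain fatty acids, was at 5.21 and 5.11 against 9.95 and 14.9 FPKM (difference 1.10 ± 0.24, limma adjusted p = 0.213). Irs2, an insulin receptor adaptor, was at 7.58 and 9.2 against 15.7 and 20.4 FPKM (limma adjusted p = 0.73). Of 13 tested genes of insulin and IGF signalling, 2 were higher and 2 lower without overlap, near the shares of all genes. Pim3, a kinase, was at 58.4 and 68.3 against 102 and 129.6 FPKM (difference 0.85 ± 0.18). Pdk4, a fasting-induced kinase, was lower mainly in library 6, at 126 and 117 against 60.3 and 108 FPKM.

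Epithelial genes of the mucosal surface were lower at 9h. All 11 tested conjunctival genes had negative differences, with a median of -0.65, 4 at an unadjusted p under 0.05 (4.36% of all genes) and 5 without overlap (14.8% of all genes). The median was -0.35 without high-fat library 7 and -0.64 without library 6. The membrane mucins Muc20 (23.4 and 19.1 against 10.3 and 8.8 FPKM), Muc1 (29.7 and 29.5 against 13.2 and 19.6 FPKM) and Muc4 (44.2 and 46.9 against 28.1 and 23.2 FPKM) were below the standard diet in both high-fat libraries, as was the keratin Krt7 (difference -0.70 ± 0.21, limma adjusted p = 0.449). Muc20 and Muc4 overlap on opposite strands, and without the strand used in counting, reads of the overlap cannot be told apart. The abundant conjunctival keratins Krt4 (525 and 623 against 608 and 487 FPKM) and Krt13 overlapped between diets. At 15h and 21h the list medians were 0.06 and -0.01, and the difference between times was not tested for the list. How much conjunctiva each eyelid sample held is not recorded in the sources used here.

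Mxd1, a MYC antagonist expressed in differentiating epithelium, was at 43.6 and 39.3 FPKM against 21.3 and 18.6 FPKM (difference -1.02 ± 0.15, limma adjusted p = 0.132), with smaller differences of -0.20 and -0.47 at 15h and 21h. Misp, a spindle and actin protein of polarised epithelia, was at 4.82 and 5.42 against 1.43 and 1.85 FPKM (difference -1.22 ± 0.20), and -1.16 and -1.21 later. Krt16, a stress keratin, was at 67.3 and 38.6 against 23.7 and 21.9 FPKM. Of 11 stress keratin and alarm genes tested, 9 were lower, 4 of them without overlap (14.8% of all genes), with a median of -0.49. The median gap of standard-diet library 3 minus library 2 was larger in that list, at -0.72. Hmox1, heme oxygenase, was at 52.5 and 49.9 against 33.7 and 33.3 FPKM (difference -0.60 ± 0.14, limma adjusted p = 0.249). It had the most negative difference of 13 antioxidant genes, of which 8 were lower and 5 higher, with a median of -0.10. Without overlap, 3 were lower and 2 higher, against 14.8% and 15% of all genes. Of 22 cell cycle genes, 18 were lower, 4 at an unadjusted p under 0.05 (4.36% of all genes), with medians of -0.10 in library 6 and -0.28 in library 7. Cdc20 was at 21.9 and 20.6 against 16.7 and 14.7 FPKM and Plk1 at 7.42 and 7.19 against 5.14 and 4.84 FPKM, with Rrm2 and Ccna2 differing by -0.29 ± 0.10 and -0.34 ± 0.12.

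The 2 high-fat libraries of 9h differed in many genes. Between them 2271 genes (17.2%) were more than 0.5 apart in log2(FPKM + 1), against 823 (6.22%) for the standard-diet pair of 9h and 513 to 1798 in the other 4 pairs. Clk1, a splicing kinase, was at 37.9 and 8.49 FPKM in libraries 6 and 7 with 8.95 and 11.2 FPKM on the standard diet, and Ogt, a glycosyltransferase, at 42.6 and 13.2 FPKM with 14.6 and 20.2 FPKM. Fitting without library 7 called 155 genes, 136 of them higher (1.03%) and 19 lower (0.144%), and the 136 had a median of 0.89 in library 6 and -0.03 in library 7, so the higher calls rest on library 6. None of the 136 belonged to a list, and Srsf11, a splicing factor chosen after its values were seen, was at 32.8 and 11.4 FPKM in libraries 6 and 7. Cebpb (36.7 and 93.9 FPKM) and Echdc1 (15.9 and 46.4 FPKM) were among the genes higher in library 7.

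Matrix, endothelial and Schwann cell genes followed library 6. The endothelial list had medians of 0.31 in library 6 and -0.05 in library 7, and the Schwann cell list 0.46 and -0.03. The fibroblast and matrix list had a median of 0.55 in library 6 and -0.01 in library 7, with 14 of 15 genes lower in library 7 than in library 6, as were 67.8% of all genes. Its members Dcn (249 and 244 against 341 and 254 FPKM) and Postn (16.7 and 15.3 against 29.7 and 14.7 FPKM) were above the standard diet in library 6 and close to it in library 7. The antiviral effectors, by contrast, had medians of -1.36 and -1.39 in the same libraries. The standard-diet libraries differed in skin and neutrophil-related genes: S100a9 was at 154 and 13.8 FPKM in libraries 2 and 3, Krt77 at 76.5 and 6.35 FPKM and Defb8 at 44.3 and 5.06 FPKM, while Lars2 (15.2 and 33.3 FPKM) was higher in library 3.

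**Figure D5:**
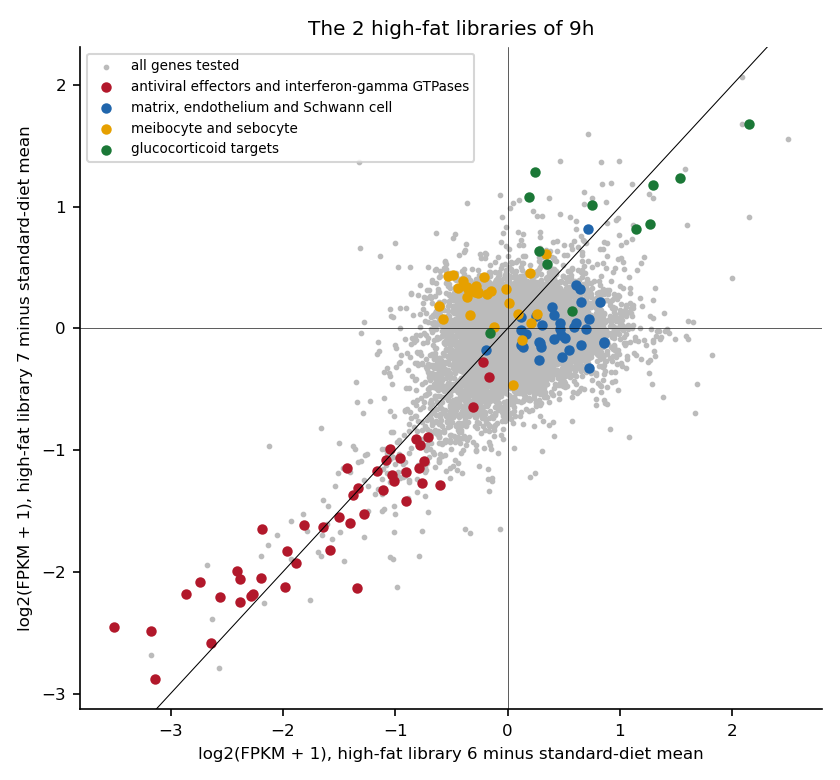
Each point is a gene at 9h: the difference in log2(FPKM + 1) from the standard-diet mean of high-fat library 6 (horizontal) and of high-fat library 7 (vertical), with the diagonal of equal differences. The interferon-induced genes lie along the diagonal down to about -3, meibocyte genes lie to the upper left, and matrix, endothelial and Schwann cell genes lie to the right near 0 on the vertical axis.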

How the data were processed

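RNA was sequenced from 12 libraries, 2 for each of 6 diet and time groups. The deposited table gives FPKM values by the authors for 21936 genes, and no counts were used. Per the submitters' processing notes, the tools were HISAT2 2.0.5, HTSeq 0.9.1 and DESeq 1.30.0, with the build mm9. Per the labels, Trizol RNA went into an NEBNext Ultra II library kit. How FPKM were computed, from which annotation and with which strand setting is not given in the sources used here. IDs and lengths behind the values fit GENCODE M21 on GRCm38: 21894 IDs matched, and with its merged exon lengths 98.1% of nonzero values were whole reads within 0.02 reads. Coordinates are from that annotation, and none were converted.

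Genes above 1 FPKM in at least 2 of 12 libraries (13228) were fitted with limma 3.58.1 in R 4.3.3 on log2(FPKM + 1), with a mean per group, a mean-dependent prior and Benjamini-Hochberg adjustment at 0.05. The 12 libraries leave 6 residual degrees of freedom, while 2 libraries against 2 cannot give an exact permutation p below 0.333. The script was tested on simulated data. The comparison, its gene lists and the promoters shown were chosen with earlier results of these data known. Genes were named as follows: the 10 with the smallest p in each direction, among those with a mean of at least 2 FPKM and no overlap between diets; the 5 largest differences in each direction among genes that met these conditions at an unadjusted p under 0.05; list members; the 5 with the smallest p for 9h against the later times; and the 6 most different between the 2 libraries of a diet. Some list members are counted but not reported here by name. Recovered depth was 16334956 to 17889160 reads per library at 9h, so 1 read is a small part of a level above 1 FPKM, except in short genes. Alternatives were another pseudocount, other filters, scalings, priors and weights, a replicate block, limma-voom on recovered reads, the 4 libraries of 9h alone, and leaving out each library.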

Additional observations from a re-analysis of the deposited data

How the results depend on the processing

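Over 22 alternative fits, 24 of 43 list medians kept their sign in each. So did 103 of 106 genes named in the text and refitted each time, and 38 of the 106 were called in at least 1. Genes named for libraries without overlap cannot turn when a library of 9h is left out, so this is no sign of stability. The exceptions among these genes were Arntl, which reversed without high-fat library 7 of 9h (-0.29 to 0.10 with a library left out), and Isg20 (-0.53 to 0.035) and Slfn5 (-0.57 to 0.010), which reversed without standard-diet library 2 of 9h. Called genes numbered 0, against 55 in the fit of the 4 libraries of 9h and 0 to 155 with a library left out: 155 without high-fat library 7 of 9h, 25 without high-fat library 2 or 6 of 15h and 1 without high-fat library 6 of 21h. Genes lower at an unadjusted p under 0.05 numbered 577, 311 with library weights and 327 to 745 with a library left out, and those higher numbered 378, 174 in the 4-library fit, 174 with weights and 161 to 2022 with a library left out (2022 without high-fat library 7 and 161 without standard-diet library 2 of 9h). Calls for 9h against the later times were 0 to 1. The effector median of -1.35 became -1.88 with a pseudocount of 0.1, -1.16 with a filter above 1 FPKM in all 4 libraries and -1.89 with limma-voom, and the GTPase median of -1.82 became -2.20, -2.14 and -2.26. The glucocorticoid median of 0.82 became 0.94, 0.77 and 0.95, and 0.66 to 0.94 with a library left out. The class I median ranged from -0.82 to -0.59 and the clock median from 0.051 to 0.39, lowest without standard-diet library 2. With the label numbers as a replicate block (correlation -0.112), 0 genes were called, the effector median was -1.41 and the glucocorticoid median 0.88; the 9h groups share no number, so nothing pairs them. The cause of these shifts was not tested. edgeR and DESeq2 were not run, since the deposited values are not counts.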

Other observations

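Genes of the mitochondrial genome were higher in both high-fat libraries at 9h. Of 12 tested, 11 were higher and 10 did not overlap between diets, against 15% of all genes, with a median of 0.36 and 2 at an unadjusted p under 0.05 (2.86% of all genes). The cytochrome oxidase gene mt-Co2 was at 76.5 and 66.4 FPKM in standard-diet libraries 2 and 3 and at 120.3 and 102 FPKM in high-fat libraries 6 and 7, and mt-Nd6, of complex I, at 1154 and 1075 against 1422 and 1474 FPKM. The nuclear genes of the respiratory chain had a median of -0.02 over 17 genes (-0.11 in library 6 and 0.09 in library 7), and 0 of them reached that p. Ribosomal protein genes had a median of 0.14 (0.25 in library 6 and 0.04 in library 7). Of 25, 23 were above both standard-diet libraries in library 6, against 50.7% of all genes, and 6 in library 7, a share near the 25.9% of all genes.

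Hair follicle genes had a median of 0.21 (0.30 in library 6 and 0.07 in library 7), with 16 of 18 higher and 0 at an unadjusted p under 0.05. The hair keratin Krt33a was at 65.1 and 58.7 FPKM against 91.9 and 82.4 FPKM. Of 12 adipocyte genes, 10 were higher (median 0.30), as were 7339 of all 13228 genes. Without overlap, 3 were higher (15% of all genes), and 0 reached an unadjusted p under 0.05. Adipoq, the adiponectin gene, was at 3.67 and 1.82 against 6.73 and 3.19 FPKM and overlapped between diets. The skeletal muscle list was mixed, with 16 of 24 genes higher and 8 lower. Of 13 heat shock genes, 10 were lower, 2 at an unadjusted p under 0.05 (4.36% of all genes), with medians of -0.23 in library 6 and 0.06 in library 7. Without overlap, 2 of the 13 were lower, a share near the 14.8% of all genes. They were the endoplasmic reticulum chaperone Hspa5, at 166 and 156 against 116 and 139 FPKM, and the heat shock gene Dnajb1, at 35.1 and 33.8 against 27.1 and 29 FPKM. Of 6 mast cell and eosinophil genes, 3 were higher and 3 lower. Of 5 B and plasma cell genes, 4 were lower and 0 reached that p, and Jchain, a plasma cell gene, was at 80.1 and 53.6 against 37.5 and 17.2 FPKM.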
